A study of Mus musculus with 52 samples.

Results

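The osmotic response genes of Nfat5 are described here across clones of IMCD3, a mouse line from the inner medullary collecting duct. The set holds 7 of the 24421 gene symbols counted: Nfat5, Slc5a3, Slc6a6, Slc6a12, Akr1b3, Hspa4l and Sgk1. They were chosen by name for their known roles, with earlier results of these data already known. The 5 genes Nfat5, Slc5a3, Slc6a6, Hspa4l and Sgk1 passed the filter on low counts, and Slc6a12 and Akr1b3 did not. The study compared homozygous missense alleles of Wdr34 and Wdr60, the intermediate chains of the cytoplasmic dynein-2 motor of the cilium, with control clones, in 52 RNA-seq libraries. The labels give 13 clones by name and state with 4 libraries each, and a clone below means a clone as labelled in 1 state.

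By the methods, all cells were Cilia-APEX-IMCD3 cells that had been through CRISPR base editing, and every clone was grown from a single cell. The methods describe controls that received the BE4-Gam editor with an empty guide vector, without naming the control clones. The sample titles of non-ciliated controls 1, 2 and 3 begin with BE and those of control AB do not. The ciliated samples were the mutant clones Wdr34 1, Wdr34 3 and Wdr60 and the control clones D8, H12, A4 and G7. The non-ciliated samples were the mutant clones Wdr34 and Wdr60 and the control clones AB, 1, 2 and 3. The methods describe an alanine to valine change in Wdr60, and in Wdr34 either an arginine to tryptophan change or a glycine to serine change that came with a heterozygous change of the neighbouring glycine to aspartate. A heterozygous silent change accompanies the Wdr60 allele. The glycine to serine clone was not among the non-ciliated samples, and the labels do not say which allele the ciliated clones Wdr34 1 and Wdr34 3 carry. Each mutated gene in a state is thus 1 clone, or 2 for ciliated Wdr34, where the study's text gives each allele as 1 clone. The methods describe fewer different clones than these 13, so a clone may appear in both states, but the labels do not tie a ciliated clone to a non-ciliated one. The methods describe a low-serum medium for the ciliated samples, whereas the labels give 10% FBS for all. Serum, cilia and the names of the control clones changed together between the states, so these cannot be told apart in any comparison of states. The study's text says the glycine to serine clone became available after the non-ciliated sequencing. It gives no time of sequencing for the other clones, so a batch between the states cannot be told apart either.

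Cells of the renal medulla live in a fluid whose salt and urea content rises as urine is concentrated. They balance it with small organic osmolytes, mainly myo-inositol, taurine, betaine and sorbitol, which raise the osmotic strength of the cytosol without harming proteins. Nfat5, also called TonEBP, is a Rel-domain transcription factor that binds the tonicity enhancer element TonE near the genes for osmolyte transporters, for aldose reductase and for chaperones, and it is retained in the nucleus when tonicity rises. The labels and methods name no raised salt load, so the values describe the genes in ordinary culture medium with full or low serum.

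Levels are given in CPM, a gene's counts for every 1000000 counts of its library after TMM scaling between libraries. A library held between 14816218 and 28084979 counts. A gene was called in a comparison at a Benjamini-Hochberg adjusted p under 0.05, over all genes tested by edgeR's quasi-likelihood test, if its log2 fold change was also 1 or more in size, the fold limit. That test takes the library as the sample, and the 4 libraries of a clone are technical replicates. Its p-values therefore measure the spread among libraries, and an exact 2-sided permutation test over clone means of log2 CPM is given beside it, with the clone as the unit. In bulk RNA, fewer cells of a kind and less RNA per cell cannot be told apart.

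The collecting duct identity of the clones was checked on 11 markers, of which 8 or 9 reached 1 CPM in every clone. Pax2, Pax8 and Cdh16 were present throughout, while the water channel Aqp2 was at or near 0 in all clones and Aqp3 and Gata3 were near 0 in most. The summed level of the 9 markers of other kidney, vessel, blood and stromal cells lay between 0.488 and 12.1 CPM, against 1153 to 4369 CPM for the collecting duct list. Ciliated control G7 and non-ciliated control 2 had the lowest levels of 4 epithelial markers. Epcam was at 13.5 CPM in G7 and 2.86 CPM in control 2, against 183 to 837 CPM elsewhere, and Cdh1, Krt8 and Krt18 were lowest in the same 2 clones. Ciliated Wdr34 3 came next for Krt8, at 76.7 CPM, and Krt18, at 148 CPM. Among libraries, replicate 1 of non-ciliated control AB lay farthest from the other 3 of its clone, with a median absolute log2 difference of 0.38 over genes. Replicate 1 of non-ciliated Wdr60 followed at 0.31, then replicates 2 and 3 of ciliated Wdr60 at 0.31 and 0.28, a clone that split into 2 pairs, and replicate 4 of G7 at 0.28.

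Nfat5 itself lies at chr8:107293435-107379517 on the plus strand of GRCm38 and was well expressed in every clone, at higher levels in the ciliated controls than in the non-ciliated controls. The 16 libraries of the ciliated controls ranged from 416 to 862 CPM with a median of 639 CPM. The 16 libraries of the non-ciliated controls ranged from 132 to 390 CPM with a median of 314 CPM. The ranges of the 2 groups of libraries did not overlap.

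By clone, the ciliated controls D8, A4, G7 and H12 had mean Nfat5 levels of 785 ± 19.1, 629 ± 176, 620 ± 134 and 445 ± 46.04 CPM (SD, n = 4 libraries each). The non-ciliated controls 3, AB, 1 and 2 had 368 ± 22.6, 303 ± 116, 299 ± 23.3 and 196 ± 11.7 CPM (SD, n = 4 libraries each). All 4 ciliated control clones lay above all 4 non-ciliated control clones. The mutant clones were lower than most controls of their state, with 510 ± 182 CPM in ciliated Wdr60, 439 ± 39.9 CPM in Wdr34 1 and 361 ± 24.6 CPM in Wdr34 3. The non-ciliated mutants had 206 ± 13.1 CPM in Wdr34 and 168 ± 33.9 CPM in Wdr60. Over all 13 clones the highest mean was 4.68 times the lowest, and in 10 of the 12 neighbouring pairs in the order of clones the libraries overlapped.

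**Figure D1:**
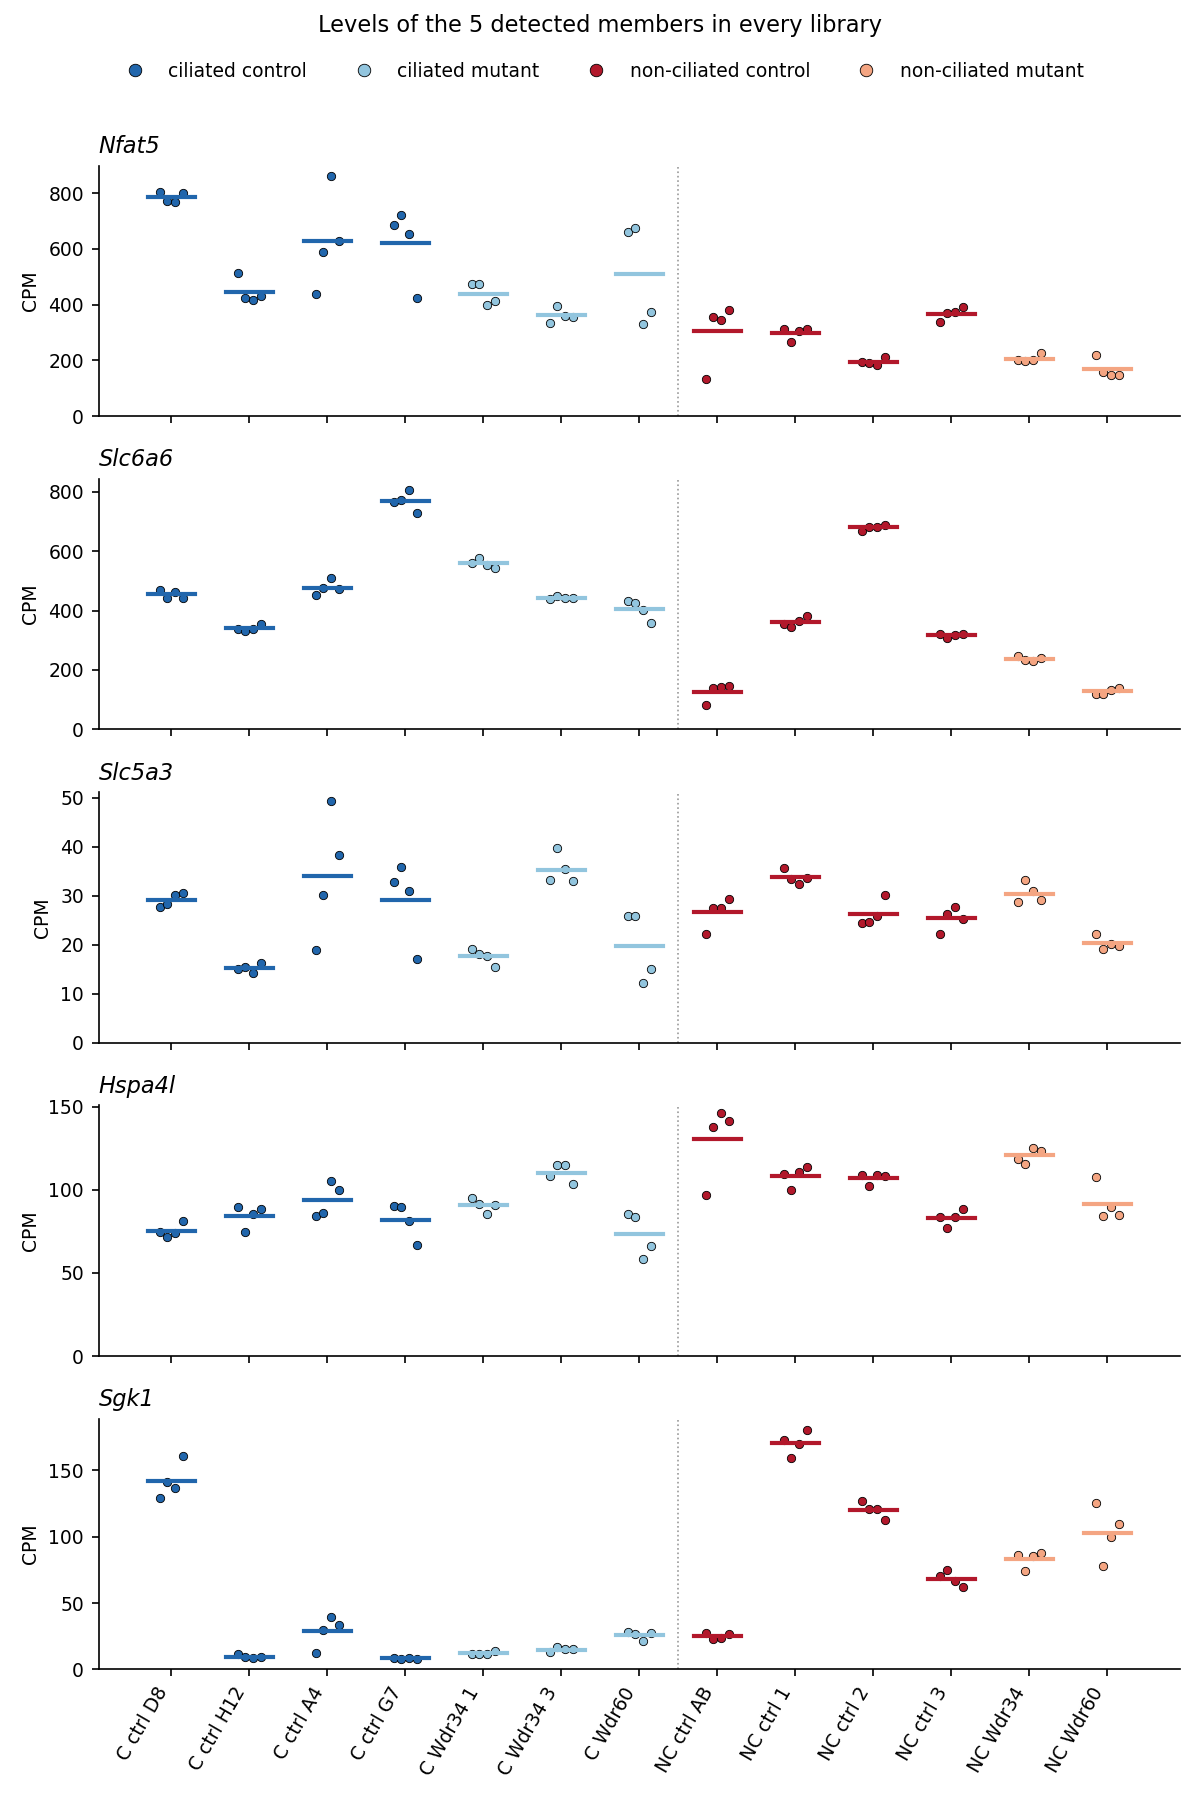
CPM of the 5 members that passed the filter, for each of the 52 libraries (points) and the mean of each clone (lines), with ciliated (C) clones left of the dotted line and non-ciliated (NC) clones right of it. The 4 ciliated controls lie above the 4 non-ciliated controls for Nfat5, whereas Sgk1 is high in control D8 and low in the other ciliated clones.

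In the comparison of ciliated with non-ciliated controls Nfat5 rose by 1.09 ± 0.15 on the log2 scale (SE; edgeR adjusted p = 1.16e-07). It was the 1 member called of 5 tested, in a comparison where 10.3% of the 11856 genes tested were called. The clone means of Nfat5 differed by 1.11 on the log2 scale, with an exact permutation p of 0.0286, the smallest that 4 clones against 4 can give. That test takes the 8 as independent, which they are not if the same clones were used in both states. Nfat5 was also the 1 member of 5 whose clone means did not overlap, beside 22.2% of all 12947 genes. With the libraries of each clone summed to 1 sample the adjusted p from edgeR was 0.0249. Without ciliated control D8 or non-ciliated control 2 the log2 fold change was 0.96 and 0.94, under the fold limit, with an edgeR adjusted p of 4.76e-06 and 2.22e-06. Without both clones low in Epcam, G7 and control 2, chosen after seeing the data, the clone means differed by 0.93 with an exact permutation p of 0.1, the smallest for 3 clones against 3.

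The same direction held between the samples labelled Wdr60, where Nfat5 rose by 1.63 ± 0.25 (SE, log2; edgeR adjusted p = 0.0005) from the non-ciliated to the ciliated sample. Slc6a6 rose by 1.68 ± 0.11 and Sgk1 fell by 1.96 ± 0.16 on the log2 scale in that pair. Thus 3 of 5 members were called, where 15.1% of all genes were. The labels do not say whether this is the same clone in both states, and the p-values cover the 4 libraries of each only.

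In mutants against controls Nfat5 was lower in both states but was not called in either. The 12 libraries of the ciliated mutants ranged from 331 to 675 CPM with a median of 396 CPM, lower than but overlapping the controls. The 8 libraries of the non-ciliated mutants ranged from 146 to 226 CPM with a median of 199 CPM, inside the range of their controls. That range reaches so low only in replicate 1 of AB, and the next lowest control library was at 184 CPM, above 3 of the 4 libraries of Wdr60. The log2 fold change was -0.51 ± 0.14 (SE; edgeR adjusted p = 0.0356) in ciliated cells and -0.64 ± 0.17 (SE; edgeR adjusted p = 0.0121) in non-ciliated cells, under the fold limit in both. Without ciliated control D8 the first value was -0.38 (log2; edgeR adjusted p = 0.178). With clones summed, the edgeR adjusted p was 1 in ciliated cells and 0.976 in non-ciliated cells. The exact permutation p over clone means was 0.0857 for 3 mutants against 4 controls and 0.267 for 2 against 4, where the smallest possible values are 0.0286 and 0.0667. Of the ciliated mutant clones, 2 of 3 lay below every control clone, and of the non-ciliated ones 1 of 2 did. The difference between the mutant effects of the 2 states was 0.13 ± 0.22 (SE, log2; edgeR adjusted p = 0.831).

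Some Nfat5 values varied within a clone by as much as between clones. The 4 libraries of non-ciliated control AB held 132, 355, 345 and 382 CPM. Those of ciliated Wdr60 held 659, 675, 331 and 374 CPM, and those of G7 held 684, 721, 652 and 423 CPM. In non-ciliated Wdr60 replicate 1 held 218 CPM and the others 146 to 159 CPM. In these 4 clones the libraries low in Nfat5 were also the lower ones in long transcripts as a class.

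That class was measured with the annotated exon length, which was found for 96.3% of the 12947 genes. For each library the median deviation from the clone mean was taken over 1167 genes with at least 10 kb of exon, and over 3294 genes with 1 to 3 kb. The long genes minus the short ones came to -0.77 on the log2 scale in replicate 1 of control AB, -0.41 in replicate 4 of G7, and -0.37 and -0.28 in replicates 3 and 4 of ciliated Wdr60. In replicate 1 of non-ciliated Wdr60 they came to 0.23. Over the 52 libraries the Nfat5 deviation had a Pearson r of 0.95 with this measure. Hspa4l had 0.88, Slc6a6 0.76, Slc5a3 0.66 and Sgk1 0.15. The points of a clone share its mean, and all genes of a library share its preparation, so these values are descriptions, and the part of this shift in the differences between groups was not tested within the model.

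Nfat5 has 18.4 kb of annotated exon, and Hspa4l and Slc5a3 have 11.8 and 10.9 kb. Between ciliated and non-ciliated controls the median difference of clone means was 0.01 for the long genes and 0.00 for the short genes, and 4.28% of the long genes had a larger difference than Nfat5. In mutants against controls the long genes had a median of -0.05 in ciliated and -0.06 in non-ciliated cells and the short genes 0.04 and 0.06, beside differences of -0.50 and -0.59 for Nfat5. Control A4 also varied, with Nfat5 at 438, 589, 862 and 627 CPM in replicates 1 to 4. There the long genes minus the short ones came to -0.04, -0.03, 0.09 and -0.03 in the same order. Without replicate 1 of control AB, an alternative chosen after seeing the data, Nfat5 was at -0.70 (log2; edgeR adjusted p = 0.00125) in non-ciliated mutants against controls.

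**Figure D2:**
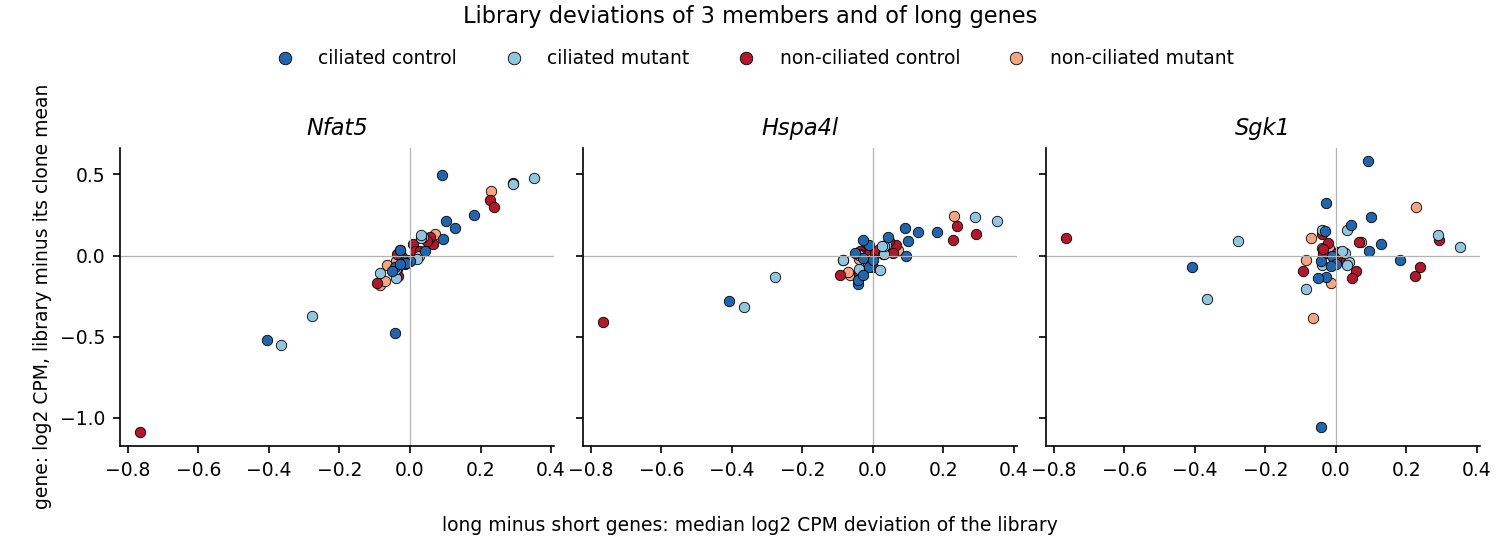
For each of the 52 libraries, the log2 CPM of Nfat5, Hspa4l or Sgk1 minus the mean of its clone (vertical) against the median deviation of long genes minus that of short genes (horizontal, log2). Nfat5 follows the horizontal measure with r = 0.95 and Sgk1 with r = 0.15, and the lowest library at left is replicate 1 of non-ciliated control AB.

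Slc6a6 encodes TauT, the sodium-coupled transporter that takes up taurine. It lies at chr6:91684048-91759063 on the plus strand of GRCm38. Of the members that passed the filter, it had the highest mean level per length of annotated exon in the controls of each state. There it held 60.3 ± 21.6 CPM per kb of exon in ciliated and 43.9 ± 27.1 in non-ciliated cells (SD, n = 4 clones each), against 33.7 ± 7.55 and 15.9 ± 3.87 for Nfat5. Its libraries lay close together within a clone and its clones lay far apart. The SD between clones of a state was 0.69 on the log2 scale, larger than for 83.4% of all genes, and the SD between libraries of a clone was 0.12, below the median of 0.18 over all genes.

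The 16 libraries of the ciliated controls ranged from 330 to 807 CPM with a median of 465 CPM, and the 12 of the ciliated mutants from 359 to 578 CPM with a median of 442 CPM. In the 16 non-ciliated control libraries the range was 83.4 to 687 CPM with a median of 334 CPM, and in the 8 non-ciliated mutant libraries it was 118 to 248 CPM with a median of 184 CPM. Mutants and controls overlapped in both states.

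The highest clone means were those of ciliated control G7, 769 ± 32.6 CPM, and non-ciliated control 2, 680 ± 7.34 CPM (SD, n = 4 libraries each). The lowest were non-ciliated control AB, 127 ± 29.4 CPM, and non-ciliated Wdr60, 128 ± 10.8 CPM. Non-ciliated Wdr34 had 238 ± 8.03 CPM, and controls 1 and 3 had 362 ± 15.3 and 317 ± 6.70 CPM. In 7 of the 12 neighbouring pairs in the order of the 13 clones the libraries did not overlap, the most of any member.

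In non-ciliated mutants against controls Slc6a6 was called lower, at -1.02 ± 0.33 on the log2 scale (SE; edgeR adjusted p = 0.0362). It was the 1 member called of 5 tested, beside 3.06% of all 12012 genes. The call rested on the library as the sample. With clones summed the edgeR adjusted p was 0.976, and over clone means the exact permutation p was 0.4, with both mutants inside the range of the controls. The call was also lost without any of non-ciliated Wdr60 and controls 1, 2 and 3, with log2 fold changes of -0.64, -1.04, -0.56 and -1.10. The clone means of mutants and controls overlapped for all 5 members, while they did not overlap for 12.8% of all genes. Without non-ciliated control 2, the clone with the lowest Epcam, the difference of clone means was -0.48 on the log2 scale, and without replicate 1 of AB the log2 fold change was -1.10 (edgeR adjusted p = 0.00906), both alternatives chosen after seeing the data.

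In ciliated mutants against controls Slc6a6 differed by -0.13 ± 0.14 (SE, log2; edgeR adjusted p = 0.65), and by 0.14 without control G7. The difference between states in the mutant effect was 0.90 ± 0.33 (SE, log2; edgeR adjusted p = 0.16), and it was called without control AB, at 1.19, and without G7, at 1.17 (edgeR adjusted p = 0.00278 and 0.0148). Between ciliated and non-ciliated controls Slc6a6 differed by 0.46 ± 0.23 (SE, log2; edgeR adjusted p = 0.0872), and over clone means the exact permutation p was 0.314. Without control 2 it was at 0.93 (log2; edgeR adjusted p = 0.000327), and without AB and G7 in turn at 0.18 and 0.20.

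Over the clones the Slc6a6 level went up with some epithelial markers and down with others. With clone means centred within each state, Slc6a6 had a Pearson r of 0.93 with Pax8, a transcription factor of the renal epithelium. It had 0.73 with Pax2 and 0.48 with Cdh16. It had -0.76 with Epcam, -0.73 with Cdh1, -0.58 with Krt8 and -0.53 with Krt18, over 13 clones. G7 and control 2 had both the lowest Epcam and the highest Slc6a6, as the plot of Slc6a6 against markers shows. Pax8 was at 419 CPM in G7, 299.9 CPM in control 2, 152 CPM in control AB and 150.1 CPM in non-ciliated Wdr60, so that the 2 highest and the 2 lowest clones were the same for both genes. The part of these marker differences in the call of Slc6a6 was not tested.

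**Figure D3:**
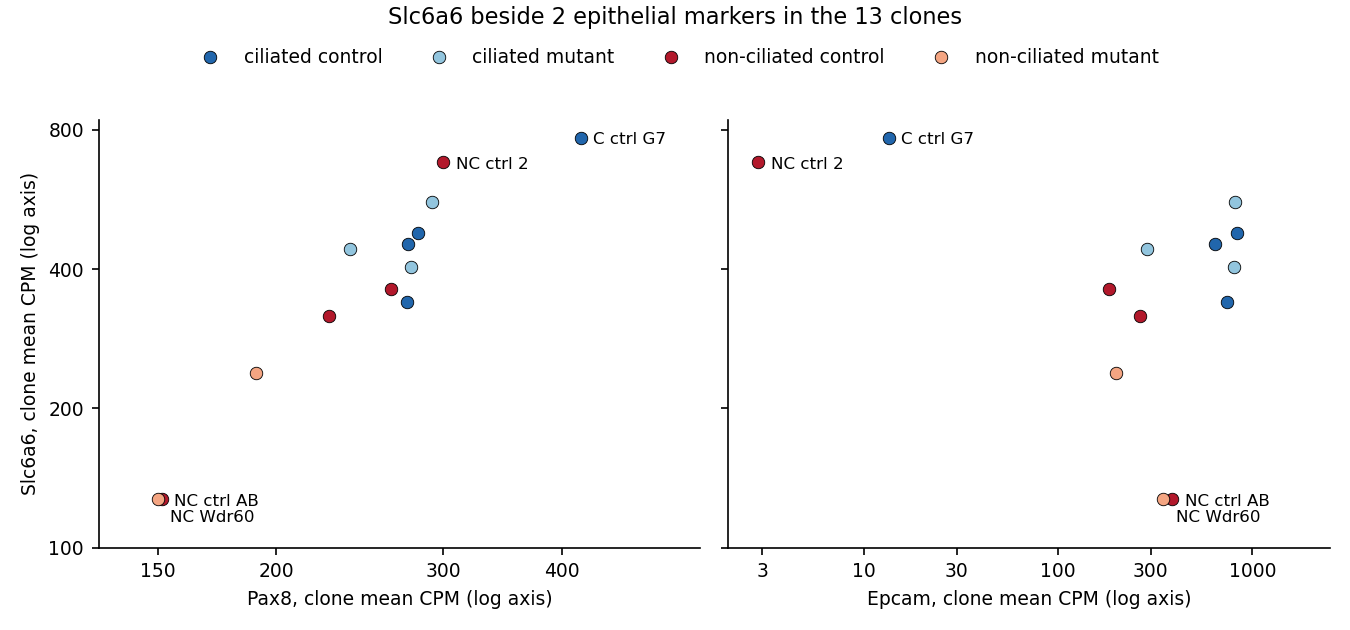
Mean CPM of Slc6a6 (vertical, log axis) against mean CPM of Pax8 or Epcam (horizontal, log axis) in the 13 clones. Slc6a6 is highest in G7 and control 2, where Epcam is at 13.5 and 2.86 CPM, and lowest in control AB and non-ciliated Wdr60.

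Slc5a3 encodes SMIT1, which takes up myo-inositol with sodium, and lies at chr16:92058322-92087473 on the plus strand of GRCm38. It was low in every clone, at 2.47 ± 0.74 CPM per kb in ciliated and 2.57 ± 0.36 in non-ciliated controls (SD, n = 4 clones each). Its 52 libraries ran from 12.2 to 49.3 CPM. Clone means ran from 15.3 ± 0.83 CPM in control H12 to 35.4 ± 3.13 CPM in ciliated Wdr34 3, and in 11 of 12 neighbouring pairs the libraries overlapped. Slc5a3 was called in no comparison of groups. Its log2 fold change was -0.16 ± 0.20 in ciliated mutants, -0.14 ± 0.11 in non-ciliated mutants and -0.05 ± 0.14 between the states of the controls (SE; edgeR adjusted p = 0.72, 0.385 and 0.765). Its exons share 159 of 10913 bases with those of Mrps6, a mitochondrial ribosome gene, and how reads in shared exons were counted is not given in the sources used here.

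Slc6a12 encodes BGT1, which takes up betaine, and lies at chr6:121342574-121365773 on the plus strand of GRCm38. It was barely detected, with 13 counts in all, in 9 of 52 libraries, and with 3 counts at most in a library. Ciliated control D8 held 5 of these counts, non-ciliated Wdr34, control 1 and control 3 held 2 each, and non-ciliated Wdr60 and control A4 held 1 each. A count of 0 allows up to 3 counts, for counting error only. Depending on the library, that limit is 0.107 to 0.202 CPM, taken here on the library's total counts without TMM scaling. No difference between groups was detectable at this depth.

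The window before the first Slc6a12 start site is printed because it was the single window of the members with a full TonE match, beside a gene with almost no reads. RefSeq promoter windows of 300 bases, 250 before the start site and 50 after it, were given for 5 members, in 14 windows (GRCm38.p6). Both strands were searched for TonE and for TGGAAA, the letters with which TonE begins, so that every TonE match is also a TGGAAA match. TonE was found in 1 of the 14 windows and in 4.96% of all 32851 windows, and TGGAAA in 3 of 14 and in 21.4% of all. The windows of Nfat5, Slc5a3 and Hspa4l held neither. A match is a run of letters, not a measured binding site. The 250 bases before the start site, chr6:121342324-121342573, plus strand, have TonE in capitals, beginning 75 bases before the start site.
Slc6a12: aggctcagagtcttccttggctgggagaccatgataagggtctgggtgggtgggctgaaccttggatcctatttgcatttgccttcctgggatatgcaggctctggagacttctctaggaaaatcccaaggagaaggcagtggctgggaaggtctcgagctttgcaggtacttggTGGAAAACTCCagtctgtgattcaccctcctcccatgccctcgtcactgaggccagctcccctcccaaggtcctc

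Akr1b3 encodes aldose reductase, which turns glucose into sorbitol, and lies at chr6:34303930-34317489 on the minus strand of GRCm38. It held 3 counts in all 52 libraries, 2 in a library of non-ciliated Wdr34 and 1 in a library of ciliated Wdr60. That value is uncertain as a measure of its RNA. In the GENCODE transcripts 4 other loci match it at 99.1% to 99.7% identity over at least 948 bases, and reads shared by such copies may not have been counted for any of them. For no other member was a transcript of another gene found at 95% identity over 300 bases. Among its relatives, Akr1b8 and Akr1b10 passed the filter and Akr1b7 did not. Akr1b8 had clone means of 3.05 to 44.4 CPM and was not called between mutants and controls in either state, nor between states.

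Hspa4l encodes a chaperone of the Hsp110 family, also known as Osp94 from its induction by osmotic stress in the renal medulla. It lies at chr3:40744500-40796103 on the plus strand of GRCm38. It was the steadiest member, with an SD between clones of a state of 0.22 on the log2 scale, below the median of 0.30 over all genes. Its libraries ran from 66.8 to 105 CPM in the ciliated controls and from 76.8 to 146 CPM in the non-ciliated controls, with medians of 84.8 and 109 CPM, and the groups overlapped.

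Between ciliated and non-ciliated controls Hspa4l was lower, at -0.35 ± 0.08 on the log2 scale (SE; edgeR adjusted p = 0.000368), under the fold limit. With clones summed the edgeR adjusted p was 0.127, and over clone means the exact permutation p was 0.0857. Its log2 fold change was 0.11 ± 0.09 in ciliated mutants and -0.02 ± 0.11 in non-ciliated mutants (SE; edgeR adjusted p = 0.51 and 0.936). Neither is distinguishable from the spread between libraries.

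Sgk1 encodes the serum and glucocorticoid regulated kinase, which raises sodium channel activity in the collecting duct and is induced by cell shrinkage, by serum and by corticosteroids. It lies at chr10:21882184-21999903 on the plus strand of GRCm38. It varied most among the members, with an SD between clones of a state of 1.21 on the log2 scale, larger than for 93.3% of all genes. The highest clone mean was 20.5 times the lowest, while the SD between libraries of a clone was 0.25.

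Ciliated control D8 held 129, 142, 137 and 161 CPM of Sgk1. The other ciliated controls had means of 28.8 ± 11.5 CPM in A4, 9.61 ± 1.15 CPM in H12 and 8.31 ± 0.36 CPM in G7 (SD, n = 4 libraries each). Every library of D8 was above every library of the other 6 ciliated clones. The ciliated mutants had 26.1 ± 3.09 CPM in Wdr60, 14.9 ± 1.52 CPM in Wdr34 3 and 12.2 ± 0.95 CPM in Wdr34 1, all within the range of the control clones. The non-ciliated clones had 170.5 ± 8.83 CPM in control 1, 120.3 ± 5.93 in control 2, 103 ± 19.9 in Wdr60, 83.4 ± 6.40 in Wdr34, 68.5 ± 5.52 in control 3 and 25.2 ± 2.05 in control AB. Both mutants again lay inside the range of the controls.

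In ciliated mutants against controls Sgk1 had a log2 fold change of -1.41 ± 0.52 (SE; edgeR adjusted p = 0.13) and was not called. That value rests on D8, since without D8 it was 0.19 (edgeR adjusted p = 0.845). Without H12 or without G7 Sgk1 was called, at -1.74 and -1.76 (edgeR adjusted p = 0.0229 and 0.0147). The clone means differed by -0.48 on the log2 scale, with an exact permutation p of 0.8. None of the 5 members tested was called in this comparison by edgeR or by DESeq2, beside 0.644% of the 11950 genes, and 2 of them, Nfat5 and Sgk1, had an unadjusted p under 0.05. The clone means overlapped for all 5 members, while they did not overlap for 1.98% of all genes.

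In non-ciliated mutants Sgk1 had a log2 fold change of -0.04 ± 0.34 (SE; edgeR adjusted p = 0.95). Its clone means there differed by 0.25 on the log2 scale, with an exact permutation p of 0.8. Between ciliated and non-ciliated controls Sgk1 had -1.02 ± 0.49 (SE; edgeR adjusted p = 0.0692). The clone means differed by -1.71 between the states, with an exact permutation p of 0.2. That comparison again turned on D8 and AB. Without D8 the log2 fold change was -2.62 and without AB it was -1.34, both called (edgeR adjusted p = 1.32e-06 and 0.0218). The Sgk1 mutant effect differed between states by -1.36 ± 0.65 (SE, log2; edgeR adjusted p = 0.317), and by 0.24 without D8. Without G7 it was -1.71 and called (edgeR adjusted p = 0.049). No member was called in that comparison of effects by edgeR or DESeq2, beside 1.19% of all genes, with 2 at an unadjusted p under 0.05.

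TGGAAA stood in 2 of the 6 Sgk1 windows, printed to show the context of each. Capitals mark TGGAAA, which the first window holds on the minus strand and so reads TTTCCA. The stretches are chr10:21882039-21882124 and chr10:21993687-21993772, plus strand of GRCm38.p6, with the match beginning 105 and 163 bases before their start sites.
Sgk1 first window: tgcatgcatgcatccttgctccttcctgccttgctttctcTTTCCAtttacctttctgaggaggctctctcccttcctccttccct
Sgk1 later window: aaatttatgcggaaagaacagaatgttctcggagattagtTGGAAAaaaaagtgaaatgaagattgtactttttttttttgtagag

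**Figure D4:**
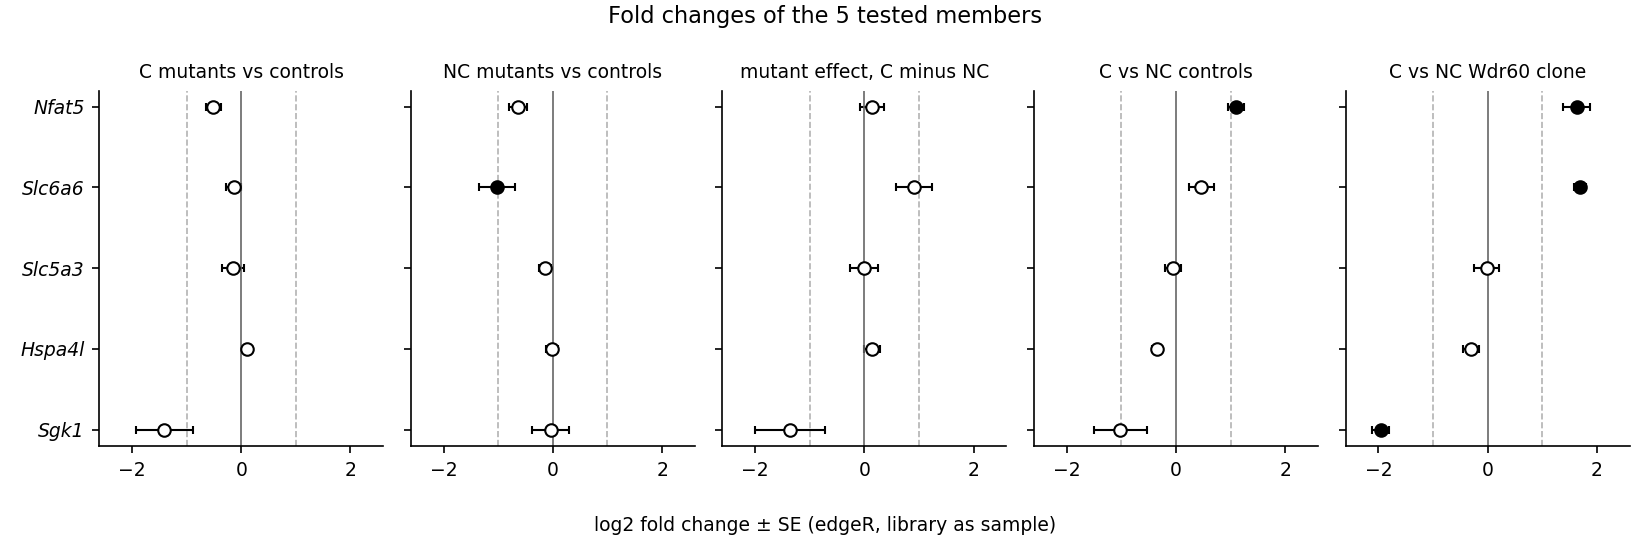
Log2 fold change ± SE (edgeR, library as sample) of the 5 tested members in the 5 comparisons of groups, with filled points for called genes and dashed lines at the fold limit. Nfat5 is called in both comparisons of states, Slc6a6 in non-ciliated mutants and in the Wdr60 pair, and Sgk1 in the Wdr60 pair.

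Each mutant clone was also set against the 4 controls of its state. Non-ciliated Wdr60 had Slc6a6 called lower, at -1.55 ± 0.46 (SE, log2; edgeR adjusted p = 0.0332), as 1 of 5 members beside 3.41% of all genes. Nfat5 at -0.80 and Slc5a3 at -0.47 passed the adjusted p there but not the fold limit. In non-ciliated Wdr34 no member was called by edgeR or DESeq2, beside 2.24% of all genes, and 1 had an unadjusted p under 0.05.

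None was called by edgeR or DESeq2 in the ciliated mutant clones, beside 0.679% of all genes in Wdr34 1, 5.8% in Wdr34 3 and 1.93% in Wdr60. There 2, 2 and 0 of the 5 members had an unadjusted p under 0.05. In ciliated Wdr34 3, Nfat5 at -0.80 ± 0.20 and Hspa4l at 0.37 ± 0.09 passed the adjusted p (SE, log2; edgeR adjusted p = 0.00649 and 0.00639). Slc6a6 was thus the single member called in any mutant clone. These comparisons share the control libraries of a state.

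The control clones also differed among themselves, each set against the other 3 controls of its state. Control AB had Slc6a6 called lower, at -1.83 ± 0.30, and Sgk1, at -2.24 ± 0.30, than the other 3 non-ciliated controls (SE, log2; edgeR adjusted p = 0.000297 and 5.41e-05), 2 of 5 members beside 6.06% of all genes. Hspa4l in AB, at 0.40, passed the adjusted p but not the fold limit. In control 2 Slc6a6 was called higher, at 1.36 ± 0.29, as 1 of 5 beside 12.9%, and Nfat5 at -0.70 passed the adjusted p alone (edgeR adjusted p = 0.00537). In D8 Sgk1 was called higher, at 3.18 ± 0.40 (SE, log2; edgeR adjusted p = 0.000111), as 1 of 5 beside 5.02%.

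H12 had Slc5a3 called lower, at -1.01 ± 0.21, as 1 of 5 beside 4.08%, and G7 had Sgk1 called lower, at -2.84 ± 0.92, as 1 of 5 beside 18.2%. D8 is among the controls that G7 was set against, and the Sgk1 libraries of G7 overlapped those of H12, which had -2.63 ± 0.96 (SE, log2; edgeR adjusted p = 0.0641) and was called by DESeq2 but not by edgeR. Under the fold limit, Slc6a6 in G7 was at 0.87 ± 0.11 (SE, log2; edgeR adjusted p = 4.28e-06), and Nfat5 and Slc6a6 in H12 were at -0.60 and -0.74 (log2; edgeR adjusted p = 0.0175 and 0.0131). No member was called by edgeR in control 1, control 3 or A4, beside 2.18%, 2.6% and 2.25% of all genes, with 2, 2 and 1 members at an unadjusted p under 0.05. DESeq2 called Sgk1 in control 1 and no member in control 3 or A4. Slc5a3 in control 1, at 0.34, and Hspa4l in control 3, at -0.47, passed the adjusted p but not the fold limit.

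The members did not move together over the 13 clones. With clone means centred within state, the 10 pairs of the 5 members had Pearson r from -0.36 to 0.43, the highest for Slc5a3 with Hspa4l. Nfat5 had 0.32 with Slc5a3, 0.16 with Slc6a6, 0.29 with Sgk1 and -0.35 with Hspa4l. The genes with the pattern most like each member, by the same measure, were Cops2 (0.92) and Hsf2 (0.88) for Nfat5, and Cs (0.97) and Got1 (0.94) for Slc5a3. They were Trib2 (0.94) and Pax8 (0.93) for Slc6a6, Mfn1 (0.84) and Eif5a2 (0.83) for Hspa4l, and Trib1 (0.94) and Rhob (0.92) for Sgk1. These are the 2 genes with the highest r for each member, over 13 clones, where both genes of a pair are read from the same libraries, and so are descriptions.

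The wider osmolyte pathway was followed in lists around the members. In ciliated mutants against controls no gene was called of 17 tested in osmolyte transport and metabolism, 6 other reported Nfat5 targets, 18 genes of cell volume sensing and ion transport, 4 Nfat relatives, 11 of the Sgk1 and corticoid list, and 5 Hsp110 and heat shock genes. Their median log2 fold changes were 0.05, -0.01, -0.03, 0.00, -0.02 and -0.17, beside -0.01 over all genes and -0.16 over the members. Nor was any called of 8 serum response genes, 8 collecting duct markers, 2 markers of other cells and 4 overlapping or closely related genes, the last of which also had no called gene in non-ciliated mutants, between the states of the controls or in the Wdr60 pair.

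In non-ciliated mutants the osmolyte list had no called gene of 17, with a median of -0.21 beside 0.00 over all genes and -0.14 over the members. Over all genes 3.06% were called, and none with clones summed. In the list of cell volume sensing 2 of 18 fell. They were Stk39, the SPAK kinase that acts on cation chloride cotransporters, at -2.92 ± 0.78, and Wnk4, a kinase upstream of it, at -1.05 ± 0.34 (SE, log2; edgeR adjusted p = 0.0135 and 0.0376). Wnk4 was at 129.8 CPM in control 2 and 31.7 to 40.4 CPM in the other 3 controls, with Wdr60 inside that range at 35.9 CPM and Wdr34 below it at 21.5 CPM. Stk39 also varied by clone among the controls, at 22.5 CPM in AB, 15.1 in control 2, 2.62 in control 3 and 0.74 in control 1. The non-ciliated mutants had 2.20 CPM in Wdr34 and 0.51 CPM in Wdr60.

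In the Sgk1 and corticoid list 1 of 10 rose and 1 fell in non-ciliated mutants. Sgk2 rose by 1.52 ± 0.52, and Nr3c2, the mineralocorticoid receptor, fell by 1.33 ± 0.23 on the log2 scale (SE; edgeR adjusted p = 0.0475 and 0.000562). Sgk2 was at 4.64 CPM in Wdr60, above all controls, and at 0.98 CPM in Wdr34, inside the range of the controls of 0.29 to 2.62 CPM. Nr3c2 was at 1.277 CPM in Wdr34 and 2.68 CPM in Wdr60, below the 3.77 to 6.997 CPM of the 4 controls. No gene was called among 6 other Nfat5 targets, 4 Nfat relatives, 5 Hsp110 and heat shock genes, 8 serum response genes or 9 collecting duct markers. Acta2, a smooth muscle actin, fell by 3.17 ± 0.80 on the log2 scale as 1 of 3 other cell markers tested, from at most 3.91 CPM in a control clone.

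**Figure D5:**
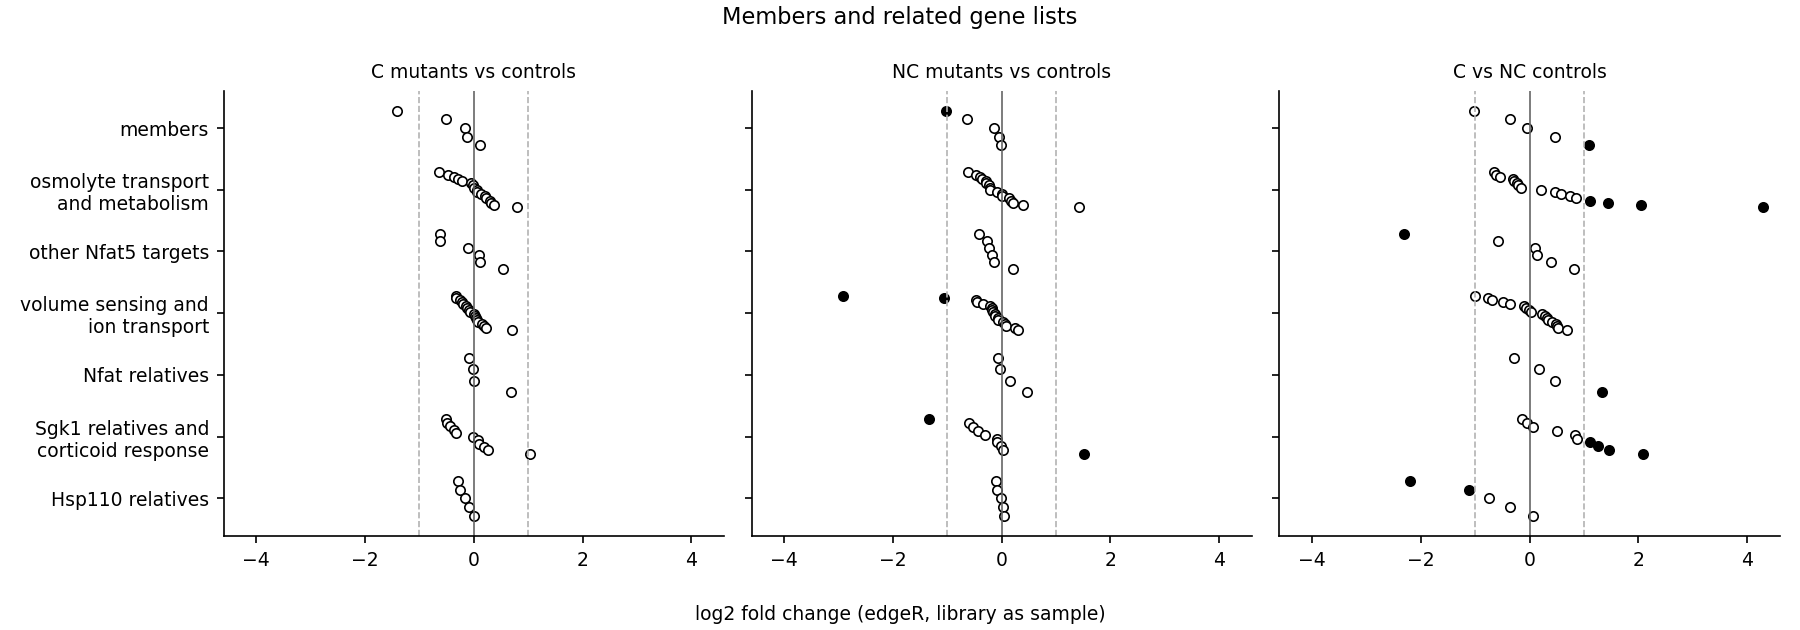
Log2 fold change (edgeR, library as sample) of each tested gene of the members and 6 related lists, in mutants against controls of each state and between the states of the controls, with filled points for called genes. In ciliated mutants no point is filled, and between states 4 genes of osmolyte metabolism lie right of the fold limit.

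Between ciliated and non-ciliated controls 10.3% of all genes were called, against 0.644% in ciliated mutants, and the counts in the lists are to be read against that share. In osmolyte transport and metabolism 4 of 17 were called, all higher, with a list median of 0.21 beside 0.02 over all genes and -0.05 over the members. They were Chdh, choline dehydrogenase on the way to betaine, at 4.28 ± 0.73, Sord, which turns sorbitol into fructose, at 2.06 ± 0.63, Csad, of taurine synthesis, at 1.44 ± 0.18, and Khk, ketohexokinase, at 1.10 ± 0.16 (SE, log2; edgeR adjusted p = 7.89e-06, 0.00557, 2.64e-08 and 6.74e-07). Chdh and Sord differed by clone. Chdh was at 37.2, 33.0, 3.22 and 1.27 CPM in A4, H12, D8 and G7, and at 0.12 to 3.24 CPM in the non-ciliated controls. Sord was at 103 CPM in G7 and 2.96 to 5.22 CPM in the other 3 ciliated controls, and at 17.1 CPM in non-ciliated control 2.

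Of 6 other reported Nfat5 targets, S100a4 fell by 2.30 ± 0.26 (SE, log2; edgeR adjusted p = 3.39e-09), from 3.86 to 8.89 CPM in the non-ciliated controls to 0.66 to 1.83 CPM in the ciliated ones. No gene of 18 in cell volume sensing was called, and of 4 Nfat relatives Nfatc4 rose by 1.34 ± 0.22. In the Sgk1 and corticoid list 4 of 10 rose and none fell, while Sgk1 was not called. They were Hsd11b2, which inactivates cortisol in the collecting duct, at 2.08 ± 0.39, Nr3c2 at 1.46 ± 0.23, Tsc22d3, a glucocorticoid induced gene also called Gilz, at 1.26 ± 0.25, and Per1 at 1.11 ± 0.17 (SE, log2). Clone means of Hsd11b2 were 0.76 to 8.16 CPM in ciliated and 0.26 to 1.53 CPM in non-ciliated controls, and so overlapped. Those of Nr3c2 (5.96 to 24.6 against 3.77 to 6.997 CPM) and Tsc22d3 (16.2 to 57.2 against 7.59 to 23.8 CPM) overlapped too. Those of Per1 did not (38.9 to 106 against 24.4 to 34.1 CPM), as was so for 22.2% of all genes.

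Of 5 Hsp110 and heat shock genes 2 fell. Hsph1, the inducible Hsp110 chaperone, was at -2.19 ± 0.17 and Hspa8, the constitutive Hsp70, at -1.12 ± 0.16 (SE, log2). Hspa4, the closest relative of Hspa4l, was at -0.74 ± 0.11 (SE, log2; edgeR adjusted p = 1.21e-06), under the fold limit. The list median was -0.74, beside -0.35 for Hspa4l. Of 8 serum response and proliferation genes 2 fell, Fos at -2.66 ± 0.35 and Ccnd1 at -2.84 ± 0.66 (SE, log2). Ccnd1 differed by clone, from 2.18 CPM in G7 to 85.8 in A4, and from 2.92 in non-ciliated control 2 to 434 in control 3. Fos had clone means of 5.84 to 30.2 CPM in the ciliated and 37.7 to 188 CPM in the non-ciliated controls. Of the markers, Cdh16 rose by 1.08 ± 0.14 as 1 of 8 collecting duct genes, and Col1a1 fell by 1.46 ± 0.27 as the 1 other cell marker tested.

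In the Wdr60 pair the osmolyte list again had Chdh, Csad and Khk called higher, 3 of 17, at 2.71 ± 0.13, 1.94 ± 0.22 and 1.08 ± 0.28 (SE, log2), in a pair where 15.1% of all genes were called. Wnk4 rose by 1.279 ± 0.11 as 1 of 17 in cell volume sensing, Nfatc4 rose by 1.93 ± 0.24 and S100a4 fell by 2.12 ± 0.30. In the Sgk1 and corticoid list Tsc22d3, Nr3c2, Hsd11b2 and Scnn1a, a subunit of the epithelial sodium channel, rose by 1.31 to 1.42 for the first 3 and by 1.08 ± 0.21 for Scnn1a, 4 of 10, where Sgk1 fell. Hsph1 fell by 2.16 ± 0.14, and 3 of 8 serum response genes fell, Fos at -3.96 ± 0.15, Egr1 at -1.19 ± 0.16 and Ccnd1 at -3.98 ± 0.13. Epcam and Cdh16 rose by 1.24 ± 0.09 and 1.71 ± 0.09, and Aqp3 fell by 2.55 ± 0.44 from 1.06 CPM.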

How the data were processed

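RNA was sequenced from 52 libraries, 4 technical replicates of each of 13 clones as labelled by name and state. The authors deposited raw counts per gene symbol, made with featureCounts of Rsubread on GRCm38/mm10 with an iGenomes annotation. The submitters' processing notes name R 3.4.4 and DESeq2 1.18.1. Strand and multi-mapping settings are not given in the sources used here. Groups were taken from the labels, and the members and lists were chosen with earlier results of these data known.

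Counts were tested in edgeR 4.0.16 (R 4.3.3) with filterByExpr, TMM scaling, the quasi-likelihood F test and Benjamini-Hochberg adjustment over all genes tested. The libraries of all labelled clones of 2 groups entered each fit, although the study's text describes fewer control clones for its ciliated comparison. The SE is the log2 fold change divided by the root of F. Clone means of log2 CPM (prior count 2, TMM over all libraries) were compared by an exact permutation test, not adjusted over members. The steps were checked on simulated counts with known changes. The simulated libraries were drawn independently, with no differences between clones, so that check does not cover the spread between clones. Named genes were the 7 members, the called genes of each list, up to 4 by adjusted p, the 2 genes most like each member over clones, and neighbours or near copies. Other genes named were chosen after their values were seen. Symbols were matched to RefSeq (23204 of 24421). Exon lengths came from GENCODE, and near copies from blastn 2.17.0. Library pairs of a clone differed beyond counting noise, so none was merged. The chi-square per degree of freedom ran from 1.99 to 103.8 over 78 pairs, with a median of 5.47. Alternatives were DESeq2 1.42.0, RLE size factors, a minimum of 1 count in any library, summed clones, voomLmFit with a clone block (limma 3.58.1), the replicate block, no fold limit, and leaving out replicates or clones.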

Additional observations from a re-analysis of the deposited data

Results flagged for a closer look

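In 75 groups of 4 values (the libraries of a clone, or the control clones of a state), 9 held a value far from the other 3 by Dixon's test on log2 CPM. Chance flags about 1 in 20 such groups. Replicate 1 of non-ciliated control AB was low in 3 members, with Nfat5 at 132 CPM against 345 to 382, Slc6a6 at 83.4 CPM against 138 to 146, and Hspa4l at 96.9 CPM against 138 to 146. In that library the long genes minus the short ones came to -0.77 on the log2 scale. Nfat5 was high in replicate 4 of non-ciliated Wdr34 (226 CPM against 199 to 201) and in replicate 1 of ciliated control H12 (514 CPM against 416 to 429). Hspa4l was low in replicate 2 of non-ciliated control 2, at 102 CPM against 108 to 109. Sgk1 was low in replicate 2 of non-ciliated Wdr34, at 73.9 CPM against 85.8 to 87.9, and high in replicate 4 of ciliated Wdr34 1, at 13.6 CPM against 11.7 to 11.8. Among control clones, Slc5a3 was high in non-ciliated control 1, at 33.8 CPM against 25.4 to 26.7.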

How the results depend on the processing

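In ciliated mutants against controls the count of members called was 0, lay between 0 and 1 with a clone left out, and was 1 by adjusted p alone. In non-ciliated mutants it was 1, became 0 with the replicate block (Slc6a6 edgeR adjusted p = 0.0606), with clones summed and in voomLmFit, was 0 to 1 with a replicate or clone left out, and was 2 by adjusted p alone. The replicate block also took the member count from 1 to 0 in non-ciliated Wdr60 and in control H12, and in no other comparison changed it. Between the states of the controls the count was 1, became 2 in voomLmFit (Nfat5 and Sgk1) and by adjusted p alone, and was 0 to 2 with a clone left out. For the mutant effect between states it was 0, and 0 to 2 with a clone left out. In the Wdr60 pair it was 3 in every setting run. The replicate numbers did not pair the libraries, since same-numbered libraries of different clones deviated with a median correlation of 0.01, over 0.1 in 20 of 144 pairs.

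Of 375 alternative log2 fold changes of members, 30 changed sign, all but those in voomLmFit by leaving out a clone or replicate. With such leave-outs the ciliated mutant values ran from -0.54 to 0.0273 for Slc5a3, -0.28 to 0.14 for Slc6a6, -0.0445 to 0.24 for Hspa4l and -1.80 to 0.19 for Sgk1. In non-ciliated mutants they ran from -0.47 to 0.13 for Slc5a3, -0.23 to 0.17 for Hspa4l and -0.36 to 0.38 for Sgk1, with Sgk1 at 0.25 in voomLmFit. Between the states of the controls Slc5a3 ran from -0.19 to 0.15. The mutant effect between states ran from -0.0089 to 0.30 for Nfat5, -0.38 to 0.32 for Slc5a3 (0.0707 in voomLmFit), -0.0469 to 0.36 for Hspa4l and -1.79 to 0.24 for Sgk1. The difference of clone means of Hspa4l in non-ciliated mutants ran from -0.0763 to 0.0266, and that of Slc6a6 in ciliated mutants was 0.15 without G7 and control 2. The cause was not tested. Over all genes, clones summed gave 0 calls for mutants against controls in either state and 660 between states, against 77, 368 and 1219, and DESeq2 gave 297, 616 and 1985.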
